A study of Homo sapiens with 15 samples.

Results

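The MYC locus was examined on chromosome 8 of hg19 between 128.7 and 130.8 Mb, a window of 2.1 Mb that holds MYC, the long noncoding RNA gene PVT1 downstream of it, and the distal cluster of enhancers used in blood cells. Its members are the ChIP-seq peaks whose summit, the position of highest signal, lies in the window. There were 391 such peaks among 198298 in the 6 peak lists of the study. The window was split by distance from its start into 5 stretches: the MYC stretch (0 to 0.1 Mb), the PVT1 stretch (0.1 to 0.5 Mb), a middle stretch (0.5 to 1.7 Mb), the distal enhancer stretch (1.7 to 2.0 Mb) and the end (2.0 to 2.1 Mb). The bounds follow the known layout of the genes, because gene coordinates of hg19 were not used here. For that reason no peak is assigned to a promoter, an exon or an intron. In the order of genes given by RefSeq for GRCh38.p14, 23 genes run from MYC to GSDMC, of which only these 2 code for protein. The others are 11 long noncoding RNA genes, among them PVT1 right after MYC and CCDC26 near the far end, 6 miRNA genes and 4 pseudogenes.

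The cells were TF-1, a human erythroleukemia line grown with cytokines. One line carried an inducible vector for wild-type RAD21 (WT) and the other the same kind of vector for RAD21 Q592*, a truncated form; both were treated with DOX (doxycycline) for 6 days, and the labels name no change to the cells' own RAD21. GATA2, RUNX1 and SMC3 were immunoprecipitated, with 2 libraries for each target and line except RUNX1 in Q592*, which had 1, and with 2 input libraries for each line. Each line and target has 1 peak list, pooled over its libraries, so every difference below is between 2 pooled lists, with no replicate spread and no test. Intervals of 95% by Wilson's method cover counting error only.

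MYC encodes a transcription factor that drives growth and division and is a common oncogene in leukemia. Its transcription in blood stem cells and leukemia depends on enhancers that lie far downstream, past PVT1, and reach the gene by folding of the chromosome. Such folding involves cohesin, a protein ring that extrudes loops of chromatin and of which SMC3 and RAD21 are both part. RUNX1 and GATA2 bind DNA in early blood cells, often at the same enhancers.

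The locus was dense in binding in both lines, and the targets differed in where they lay. GATA2 had 90 peaks in WT and 124 in Q592*, RUNX1 had 30 and 33, and SMC3 had 79 and 35. Relative to the mean number of peaks per Mb along the chromosomes, the window held 3.40 times as many GATA2 peaks in WT and 3.09 times in Q592*. For RUNX1 the excess was 4.60 times in WT and 3.12 times in Q592*. For SMC3 it was 2.75 times in WT and only 1.57 times in Q592*.

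**Figure D1:**
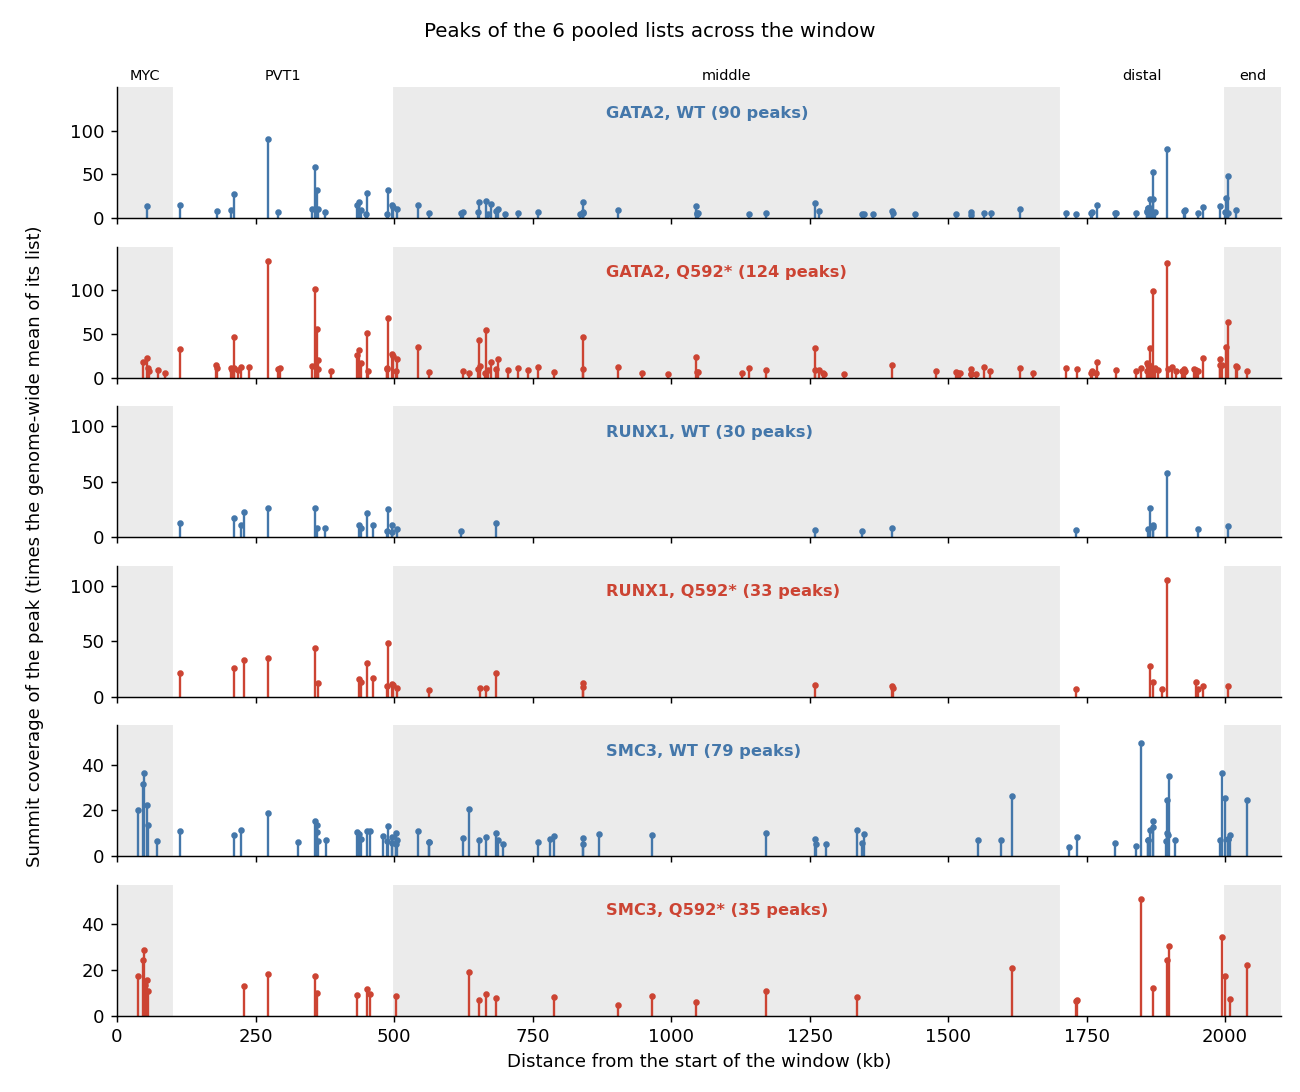
Peaks of GATA2, RUNX1 and SMC3 along the window, with 1 panel for each of the 6 pooled lists; the x axis is the distance from the start of the window in kb, each stem is 1 peak, its height is the summit coverage in multiples of the list's genome-wide mean, the number of reads at the peak's summit relative to the average position, and shading separates the 5 stretches. The tallest GATA2 and RUNX1 stems stand in the PVT1 and distal stretches in both lines, and the SMC3 stems are fewer in Q592* (35) than in WT (79).

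The stretches carried the targets unequally. GATA2 was most crowded in the distal stretch, with 83.3 peaks per Mb in WT and 113.3 in Q592*, against 12.6 and 19.1 per Mb over the genome. RUNX1 was most crowded in the PVT1 stretch, with 40 peaks per Mb in WT and 35.0 in Q592*, and it had no peak in the MYC stretch of either line. The first RUNX1 peak lay 113 kb from the start of the window, in the PVT1 stretch. SMC3 was spread over all 5 stretches in WT, with 60.0 peaks per Mb in the MYC stretch and 63.3 in the distal stretch. RUNX1 also left the longest empty run, 575 kb in the middle stretch of WT and 418 kb in Q592*. A list holds only peaks above the caller's threshold, so the absence of a peak is not the absence of the protein.

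How the lines compared by stretch depended on the target. GATA2 had 20 peaks in WT and 29 in Q592* in the PVT1 stretch, 40 and 50 in the middle, and 25 and 34 in the distal stretch. The MYC stretch had 1 GATA2 peak in WT and 6 in Q592*. RUNX1 had 16 and 14 in the PVT1 stretch, 6 and 10 in the middle, and 7 and 8 in the distal stretch. SMC3 had 6 peaks in the MYC stretch of each line, but fewer in Q592* in the PVT1 stretch (7 against 20), the middle (12 against 30) and the distal stretch (8 against 19).

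**Figure D2:**
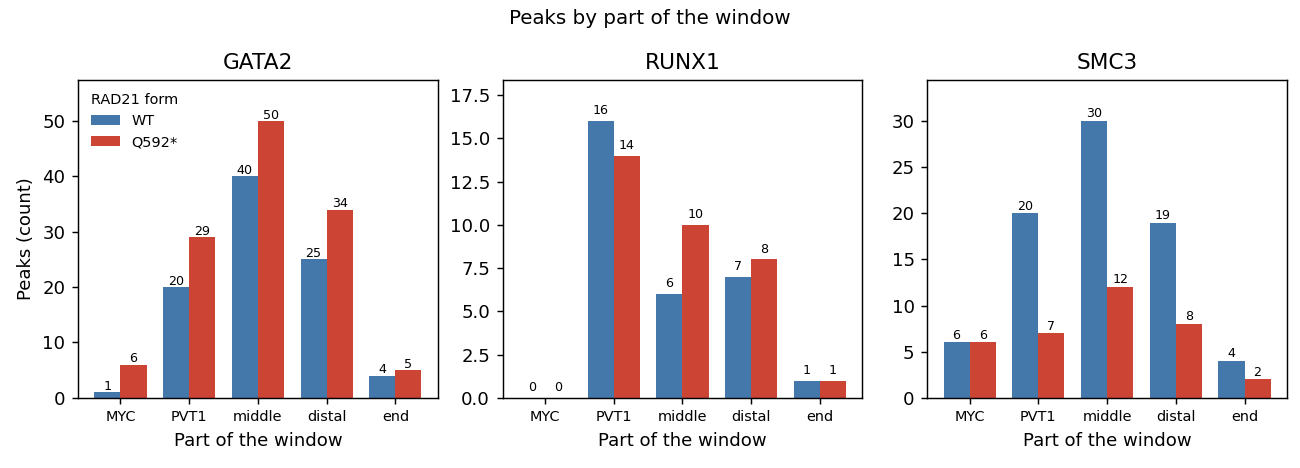
Number of peaks (y axis, starting at 0) in the 5 stretches of the window (x axis), for GATA2, RUNX1 and SMC3 in separate panels; bars give WT and Q592*, 1 pooled list each, so there is no error bar. SMC3 has 6 peaks in each line in the MYC stretch and fewer in Q592* in every other stretch.

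As ratios of Q592* to WT, the window gave 1.38 for GATA2, 1.10 for RUNX1 and 0.443 for SMC3. The whole lists gave 1.51, 1.62 and 0.774. All 3 ratios of the window were below those of the whole lists. With the longer list of each target trimmed to the length of the shorter by −log10 q, the direction turned for the transcription factors. Then 70 GATA2 peaks stood in Q592* against 90 in WT, and 15 RUNX1 peaks against 30, while SMC3 stayed lower in Q592*, at 35 against 46.

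MYC sits at the near end of the window, and in WT SMC3 was the main target found there, with 6 peaks against 1 of GATA2; in Q592* each had 6. Of the 6 WT peaks, 5 had a partner in Q592*, meaning an overlapping peak of the same target. The 3 strongest by −log10 q of WT were the peaks that began at 128746168, 128753707 and 128748403. Their fold enrichments, the ratio of the ChIP signal at the summit to the local background, were 5.87, 6.81 and 3.99 in WT, and the Q592* values at the same regions were 4.37, 4.83 and 4.20. The SMC3 signal of the stretch was therefore present in both lines.

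Summit coverage allows a closer comparison between lists. It is the number of ChIP reads at the summit, recovered from the deposited values, in multiples of the mean coverage of the list over the genome. At the 5 shared SMC3 regions of the MYC stretch the coverage was lower in Q592* at each, with a median log2 ratio of -0.34. With coverage scaled to the total reads of each list instead, the median was -0.075, so the size of this difference depends on the scaling. The strongest region by coverage, chr8:128748337-128748838, had 36.2 in WT and 28.7 in Q592*.

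GATA2 in the MYC stretch had 1 region found in both lines, at chr8:128754041-128754678, which overlapped SMC3 peaks of both lines. Its fold was 4.28 in WT and 7.48 in Q592*, and its coverage 13.6 and 22.4. The other 5 GATA2 peaks of the stretch were in Q592* only. The strongest of these, chr8:128747665-128747943, had a fold of 3.01 and a coverage of 17.7 over a local background 5.73 times the genome-wide value.

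PVT1, a noncoding gene whose promoter and body hold regulatory elements for MYC, lies in the stretch with the strongest GATA2 peak of the window. At chr8:128972311-128973120 all 3 targets were called in both lines. The GATA2 fold was 24.9 in WT and 33.7 in Q592*, rank 12 of 38962 and rank 14 of 59009 peaks by −log10 q. Its coverage was 90.7 and 133 times the mean. RUNX1 at the same place had folds of 7.25 in WT and 8.66 in Q592*, and SMC3 had 5.29 and 4.16. This place was thus among the strongest GATA2 peaks of either list, while its SMC3 signal ranked 16404 of 42353 in WT.

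A second strong place, chr8:129056777-129057682, also carried all 3 targets in both lines. GATA2 had folds of 19.5 in WT and 25.6 in Q592* there, RUNX1 6.54 and 10.6, and SMC3 5.09 and 3.55. The coverage of GATA2 was 58.4 in WT and 101 in Q592*. SMC3 coverage was 15.3 in WT and 17.2 in Q592*, so the lower fold in Q592* went with a higher local background, 4.68 times the genome-wide value against 2.81.

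The third PVT1 place with all 3 targets in both lines was chr8:129150550-129151488. Here RUNX1 had its highest fold of the stretch in each line, 13.1 in WT and 11.7 in Q592*. GATA2 had folds of 17.6 and 19.0, and SMC3 of 5.05 and 4.34. RUNX1 coverage was 21.7 in WT and 30.4 in Q592*, above that of WT although the fold was below it.

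At 5 further PVT1 places WT had all 3 targets and Q592* had GATA2 and RUNX1 without SMC3. One of them, chr8:129189031-129189739, had the largest log2 ratio of RUNX1 coverage among the shared regions, 0.94; by fold, other regions differed more. RUNX1 fold was 5.41 in WT and 10.2 in Q592*, with coverage of 25.2 and 48.3, and GATA2 fold was 6.44 and 14.6. SMC3 had a fold of 2.87 in WT and no Q592* peak. Another, chr8:129195601-129196173, held the WT SMC3 peak with the highest fold among those without a partner, 5.66, while GATA2 was called at 10.4 and 11.4.

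The distal stretch holds the blood enhancer cluster, and CCDC26 by the known layout. Its leading place, chr8:130593852-130594875, lay 1.89 Mb from the start of the window and was the strongest RUNX1 peak of the window by −log10 q in both lines. RUNX1 had a fold of 9.26 in WT, rank 18 of 9603, and 19.8 in Q592*, rank 6 of 15582. Its coverage was 57.8 in WT and 105 in Q592*. GATA2 at this place had folds of 11.4 and 24.5, rank 121 in WT and 44 in Q592*, with coverage of 79.5 and 130. The transcription factor signal at the place was higher in Q592* by both measures.

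SMC3 at the same distal place went the other way in fold but not in coverage. The fold was 4.54 in WT and 2.21 in Q592*, and −log10 q was 31.0 and 9.41. The coverage was 24.4 in WT and 24.3 in Q592*. The local background was 5.19 times the genome-wide value in WT and 10.8 times in Q592*, the highest of any window peak of that list. At the strongest distal RUNX1 place a lower SMC3 fold in Q592* thus came with a higher local background and nearly equal coverage. Fold is itself the ratio of summit signal to local background, and the cause of its difference was not tested. Scaled to total reads, SMC3 at this place was higher in Q592*, by 0.25 on the log2 scale (118 reads at the summit in WT and 127 in Q592*). That scaling rests on an assumed fragment length for each list.

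**Figure D3:**
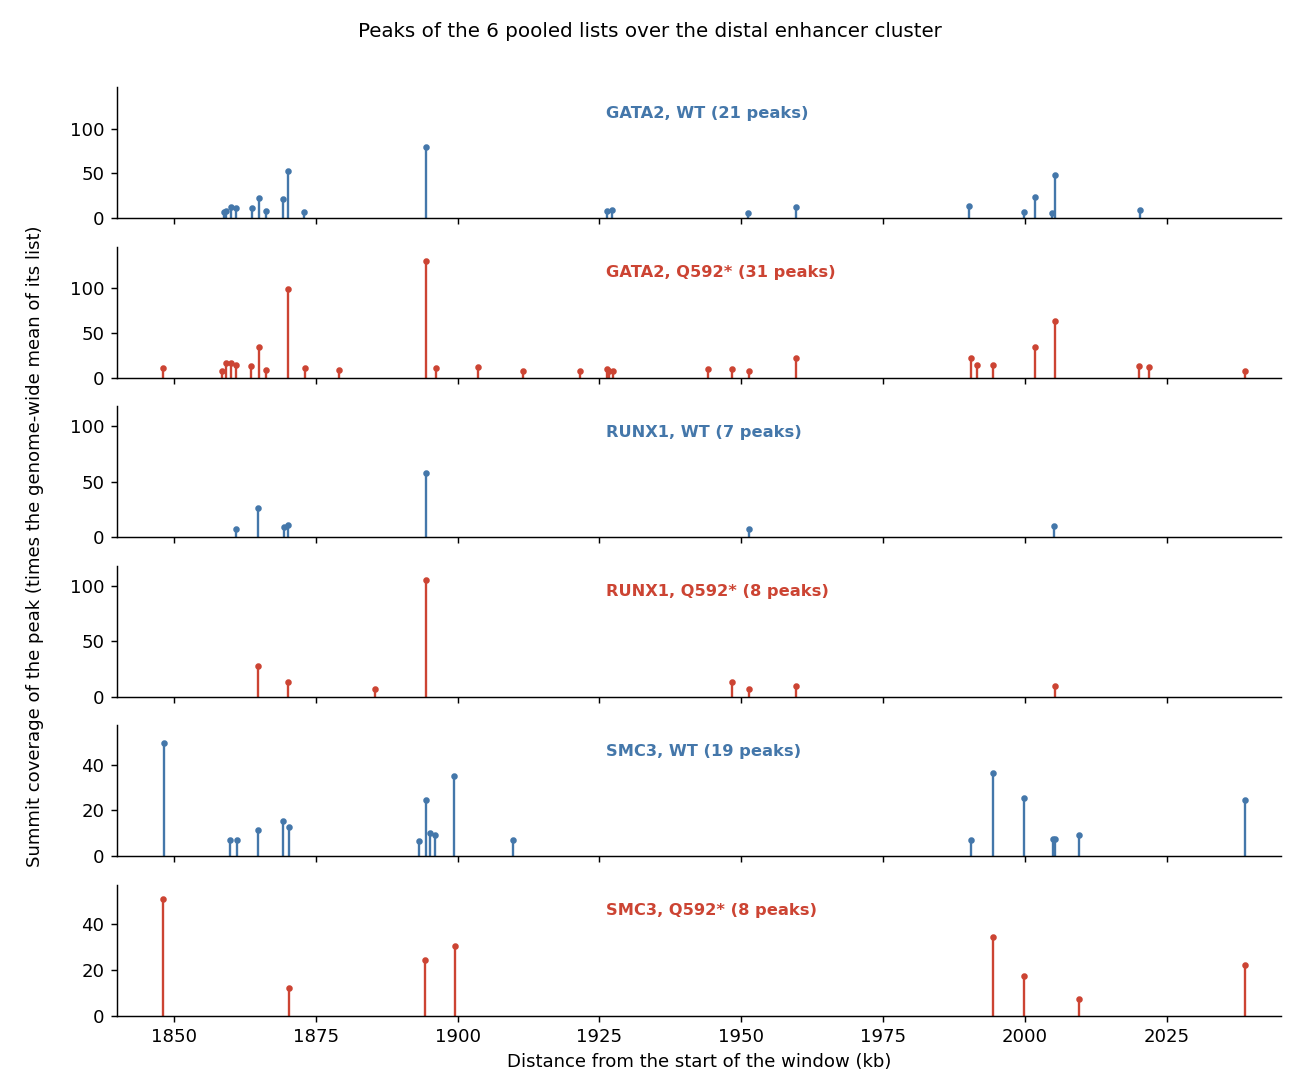
Peaks from the distal cluster to the end of the window, with 1 panel for each of the 6 pooled lists; the x axis is the distance from the start of the window in kb, each stem is 1 peak, and its height is the summit coverage in multiples of the list's genome-wide mean. GATA2 and RUNX1 are tallest at the same place, 1.89 Mb from the start, and the tallest SMC3 stem is another peak, with coverage of 49.3 in WT and 51.1 in Q592*.

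Other distal places showed how the targets parted. At chr8:130569053-130570489 GATA2 had folds of 18.8 in WT and 23.8 in Q592*, with coverage of 52.2 and 99.5. RUNX1 was weak there, at 3.77 and 3.32. SMC3 had a pair of WT peaks at that place: the one with the higher fold, 5.20, had no Q592* partner, and its neighbour had folds of 4.56 in WT and 2.42 in Q592*. At chr8:130564375-130565340 GATA2 had folds of 6.73 and 8.23 and RUNX1 of 5.31 and 4.85, and SMC3 had 2.35 in WT and no Q592* peak. Both places had GATA2 and RUNX1 peaks in either line, and each had an SMC3 peak that was called in WT only.

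The strongest SMC3 peaks of the distal stretch lay elsewhere and had partners in Q592*. The region chr8:130547490-130548551 had a fold of 9.54 in WT and 6.51 in Q592*, chr8:130693912-130694712 had 10.6 and 6.67, and chr8:130599075-130599843 had 7.55 and 6.30. Their coverages were 49.3 and 51.1, 36.4 and 34.3, and 35.2 and 30.6. None of these 3 was at a place with all 3 targets. Past the distal stretch, SMC3 at chr8:130738444-130738924 had a higher fold in Q592*, 11.6 against 7.13, with coverage of 22.0 against 24.4. Its local background was 1.67 times the genome-wide value in Q592* and 3.21 times in WT.

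The middle stretch is long and poor in genes that code for protein, and it held the GATA2 regions with the largest ratios of Q592* to WT. At chr8:129365822-129366414 GATA2 had folds of 13.1 in WT and 20.6 in Q592*, and its coverage of 19.6 and 54.4 gave a log2 ratio of 1.47, the highest among the 71 shared GATA2 regions of the window. At chr8:129541103-129541773 the folds were 14.1 and 23.5 and the log2 ratio 1.29. Both had a RUNX1 peak in Q592* only, with folds of 3.01 and 4.43. By −log10 q the leading RUNX1 region of the stretch was chr8:129384562-129384851, with folds of 6.80 and 8.99. The end stretch held 1 strong GATA2 place, chr8:130704870-130705450, with folds of 19.4 and 19.9, where SMC3 had 3.21 in WT and no Q592* peak.

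A larger share of SMC3 regions was missing from Q592* at the locus than over the rest of the genome; the excess was not tested, since each line has 1 list. When the peaks of both lines were joined into regions by an overlap of at least 1 bp, SMC3 gave 30 shared, 48 WT-only and 5 Q592*-only regions in the window, which are 36.1%, 57.8% and 6.02%. Outside, 65.6% of the SMC3 regions were shared, 27.5% WT-only and 6.84% Q592*-only. Of the 78 WT regions, 61.5% (50.4 to 71.6%) had no Q592* peak, against 29.6% of 41945 outside the window and 31.6% on the rest of chromosome 8. The share was 13 of 19 in the PVT1 stretch, 20 of 30 in the middle and 12 of 19 in the distal stretch, and 1 of 6 in the MYC stretch. With WT limited to a −log10 q of at least 10 and held against the full Q592* list, the share was 18.2% (6 of 33) in the window and 8.54% outside.

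The strength of the WT peaks differed between the locus and the genome, and the share without a partner followed strength. By quartile of the WT SMC3 list, from weakest to strongest, the window had 38, 23, 12 and 6 peaks, and 1, 13, 11 and 6 of these had a partner. Those are 2.63%, 56.5%, 91.7% and 100%. Outside the window the shares were 24.1%, 61.7%, 96.8% and 100%. Weak peaks thus made up much of the window's SMC3, and in the weakest quartile the share with a partner was lower in the window than outside. The median −log10 q was 20.2 for window peaks with a partner and 5.99 for those without. The highest −log10 q among WT peaks with no partner were 22.4 in the distal stretch, 13.7 in the PVT1 stretch and 10.9 in the middle.

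Local background was compared between the lines only at shared regions, since a region without a Q592* peak has no Q592* value. At the 30 shared SMC3 regions of the window the local background was higher in Q592* by a median of 0.30 on the log2 scale. Outside the window the median log2 ratio was -5.7e-05. In multiples of the genome-wide value, the line medians in the window were 2.51 in WT and 2.66 in Q592*. Outside, they were 2.22 and 2.23. At shared GATA2 and RUNX1 regions of the window the local background was also higher in Q592*, by 0.37 and 0.30, against 0.21 and 0.24 outside. The background is estimated from input reads, and each line has 2 input libraries, so the targets may not be separate readings of it. Recovered input depth was also lower for the lists of Q592* than for those of WT. By stretch, the median log2 ratio of local background at shared SMC3 regions was -0.014 (MYC), 0.31 (PVT1), 0.34 (middle), 0.62 (distal) and -0.39 (end). A higher local background lowers fold and −log10 q at the same coverage. Its part in the number of SMC3 peaks found in WT only was not tested.

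**Figure D4:**
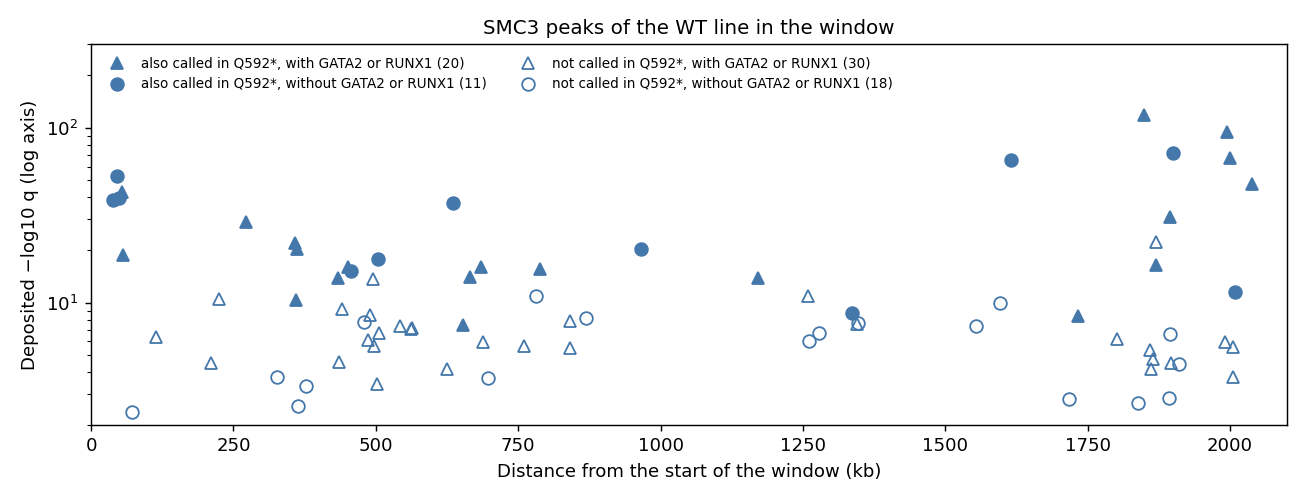
The 79 SMC3 peaks of WT in the window by distance from its start in kb (x axis) and −log10 q (y axis, log scale); filled symbols have a partner in Q592* and open symbols have none, and triangles overlap a GATA2 or RUNX1 peak of either line while circles do not. The groups hold 20 filled and 30 open triangles and 11 filled and 18 open circles, and the open symbols reach no higher than 22.4.

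SMC3 regions with and without a Q592* peak lay at the transcription factors in like shares. Of the shared SMC3 regions of the window 19 of 30 (63.3%, 45.5 to 78.1%) overlapped a GATA2 or RUNX1 peak of either line, against 22.4% outside. Of the WT-only regions 30 of 48 (62.5%, 48.4 to 74.8%) did, against 54.4% outside. Seen from the other side, 19 of 49 WT SMC3 regions at a factor (38.8%) and 11 of 29 away from one (37.9%) had a Q592* peak. Outside the window the corresponding shares were 49.5% and 80.2%. SMC3 regions away from GATA2 and RUNX1 thus had a Q592* peak in a smaller share at the locus than elsewhere, though 29 regions leave an interval of 22.7 to 56.0%. The window's peaks away from a factor were also weaker: by quartile from the weakest, 0 of 14, 4 of 8, 4 of 4 and 3 of 3 had a partner, against 26.4%, 67.5%, 97.3% and 100% outside.

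The 5 SMC3 regions found only in Q592* were weak. Their folds ran from 1.92 to 4.14, with a median of 3.49, against a median of 3.58 for such peaks outside. The one with the highest −log10 q, 12.5, was chr8:128750037-128750213 in the MYC stretch, with a fold of 3.49, and 4 of the 5 (37.6 to 96.4%) overlapped a GATA2 or RUNX1 peak of either line, against 34.5% outside. They were 14.3% of the Q592* SMC3 regions of the window, against 9.44% outside.

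GATA2 regions of the window were shared about as often as outside it, and those of 1 line were weaker than the shared ones, as they were outside. Joined, the lists gave 71 shared, 52 Q592*-only and 17 WT-only GATA2 regions, or 50.7%, 37.1% and 12.1%. Outside, the GATA2 shares were 52.0%, 40.1% and 7.95%. Of the WT regions 19.3% had no Q592* peak, against 13.3% outside, and of the Q592* regions 42.3% had no WT peak, against 43.6% outside. The share of additional GATA2 regions was thus near the background. With lists of equal length 13 GATA2 regions were in Q592* only and 31 in WT only, so their balance turned with the lengths. The 52 Q592*-only regions had a median fold of 3.38, against 4.02 for such peaks outside, and a highest coverage of 17.7. All 10 of the strongest GATA2 peaks of each line had a partner in the other. With a −log10 q of at least 10, 46 WT peaks of the window had a partner and 0 had none, and outside 22632 and 489. In Q592* the numbers were 57 and 13 in the window, and 28749 and 10300 outside. The share for the strongest peaks outside was not computed.

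RUNX1 regions were shared in 22 cases, with 11 in Q592* only and 8 in WT only, or 53.7%, 26.8% and 19.5%. Outside, the RUNX1 shares were 46.0%, 44.5% and 9.57%. Of the WT regions 26.7% had no partner, against 17.2% outside, and of the Q592* regions 33.3%, against 49.2% outside. The 8 WT-only regions had folds of 2.77 to 4.33, and the 11 Q592*-only regions had 2.62 to 4.43. In the PVT1 stretch 4 of the 8 were found, of which chr8:128924096-128924307 had the highest −log10 q, 10.4, with a fold of 3.51. As with GATA2, the 10 strongest peaks of each line all had a partner. With a −log10 q of at least 10, 15 WT peaks of RUNX1 in the window had a partner and 2 had none, and in Q592* 15 and 3. Outside, the numbers were 5127 and 226 in WT, and 6734 and 3667 in Q592*. With lists of equal length the 13 shared RUNX1 regions stood beside 17 in WT only and 2 in Q592* only, so the balance of the single-line regions depended on the lengths.

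Where a factor was found in both lines, its summit signal was mostly higher in Q592*. Of the 71 shared GATA2 regions 70 had higher coverage in Q592*, against 97.7% of the regions outside, with a median log2 ratio of 0.58 in the window and 0.74 outside. The exception, chr8:130627081-130627415 in the distal stretch, had a log2 ratio of -0.33. The median was 0.80 in the PVT1 stretch, 0.55 in the middle and 0.45 in the distal stretch. The locus was thus close to the background in this share, and its median ratio was below the outside value.

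RUNX1 gave a like picture with fewer regions. Coverage was higher in Q592* at 20 of 22 shared regions, against 96.5% outside, with a median log2 ratio of 0.55 in the window and 0.61 outside. In the PVT1 stretch all 12 were higher, with a median of 0.62. The 5 distal regions had a median of 0.20 and ran from -0.11 to 0.87, the highest being the leading distal place.

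For SMC3 at shared regions the direction depended on the scaling. Coverage relative to the genome-wide mean was higher in Q592* at 5 of 30 regions, against 28.7% outside, with a median log2 ratio of -0.19 in the window and -0.14 outside. Scaled to the total reads of each list, without correction for fragment length, SMC3 was higher in Q592* at 19 of 30 regions, against 67.7% outside, and the medians became 0.075 and 0.12. The totals were recovered with an assumed fragment length for each list. The scalings therefore differ by a constant for each target, set by that assumption. With it, the Q592* SMC3 list gave an input depth of 72.6 M reads (M stands for 1000000). The GATA2 and RUNX1 lists of that line gave 78.0 M, although the line has 2 input libraries. The assumed length may thus be off for SMC3, and whether its direction truly turns was not settled. For GATA2 and RUNX1 scaling to total reads gave 0.64 and 0.59, in the same direction as before. The ratios of the 30 single shared SMC3 regions in the window ran from -0.56 to 0.18, and those of the 71 GATA2 regions from -0.33 to 1.47. Outside, they ran from -1.36 to 1.23 for SMC3 and from -0.58 to 2.17 for GATA2.

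**Figure D5:**
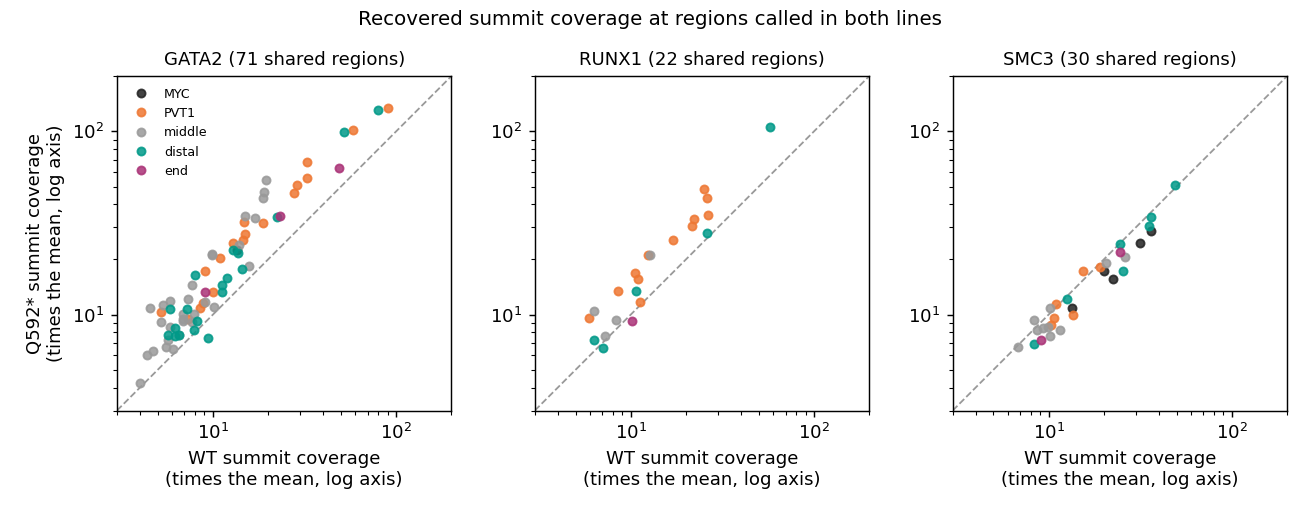
Summit coverage in WT (x axis) against Q592* (y axis) for the shared regions of the window, both on log axes in multiples of the genome-wide mean of the list, with 1 panel per target; each point is 1 region, its colour gives the stretch, and the dashed diagonal marks equal coverage. GATA2 (70 of 71) and RUNX1 (20 of 22) lie mostly above the diagonal, and SMC3 (5 of 30 above) mostly below it. Scaled to total reads, under an assumed fragment length for each list, 19 of the 30 SMC3 regions were higher in Q592*.

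In the lists as deposited, GATA2 and RUNX1 peaks of the locus met SMC3 in a larger share in WT than in Q592*. In WT 35 of 90 GATA2 peaks (38.9%) overlapped an SMC3 peak, against 26.3% outside. In Q592* 19 of 124 (15.3%) did, against 11.7% outside. Of the RUNX1 peaks 19 of 30 in WT (63.3%) and 9 of 33 in Q592* (27.3%) overlapped SMC3, against 49.1% and 25.1% outside. With lists of equal length the GATA2 shares at SMC3 were 22.2% in WT and 22.9% in Q592*, so the GATA2 difference between the lines was gone. For RUNX1 the same lists gave 13 of 30 peaks in WT and 6 of 15 in Q592*, so most of that difference was gone too. With a −log10 q of at least 10 instead, the shares stayed lower in Q592*. They were 28.3% in WT and 10.0% in Q592* for GATA2, and 8 of 17 and 3 of 18 peaks for RUNX1. Fewer SMC3 peaks were available to overlap in Q592*, and the RUNX1 share of the deposited Q592* list was close to the background.

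From the side of SMC3 the picture differed. In WT 37 of 79 SMC3 peaks (46.8%, 36.2 to 57.7%) lay at a GATA2 peak, against 24.8% outside, and in Q592* 19 of 35 (54.3%, 38.2 to 69.5%), against 21.2% outside. At a RUNX1 peak lay 19 of 79 in WT (24.1%, 11.2% outside) and 9 of 35 in Q592* (25.7%, 11.9% outside). SMC3 of this locus was thus at the transcription factors about as often in either line, and more often than outside the window in both.

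The overlap of GATA2 and RUNX1 with each other was close to the background in both lines. RUNX1 peaks lay at GATA2 in 22 of 30 cases in WT (73.3%, 75.0% outside) and in 25 of 33 in Q592* (75.8%, 74.9% outside). GATA2 peaks lay at RUNX1 in 22 of 90 (24.4%, 18.3% outside) and in 25 of 124 (20.2%, 19.5% outside). In the PVT1 stretch of WT it was 10 of 20. The summits of overlapping GATA2 and RUNX1 peaks lay a median of 51 bp apart in WT and 29 bp in Q592*, and 37 and 33 bp outside.

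When the peaks of all 6 lists were joined, the window held 177 places. All 3 targets were found at 17 places in WT (9.60%) and at 7 in Q592* (3.95%), of which 6 were the same places. Outside, 4.26% of 98627 places had all 3 in WT and 3.42% in Q592*. The 6 were 35.3% (17.3 to 58.7%) of the WT places with all 3, against 49.8% outside. Of the 18 places with all 3 targets in at least 1 line, 9 lay in the PVT1 stretch, 4 in the middle, 4 in the distal stretch, 1 at the end and none in the MYC stretch. At 9 of the 17 in WT (52.9%, 31.0 to 73.8%), Q592* had both transcription factors without SMC3, against 37.4% outside. Places where both transcription factors stood without SMC3 numbered 5 in WT (2.82%) and 19 in Q592* (10.7%), against 2.96% and 8.21% outside. Places with SMC3 alone numbered 39 (22.0%) and 13 (7.34%), against 31.2% and 25.5% outside. Of the 39 in WT, 18 had no peak of any target in Q592* (46.2%, 31.6 to 61.4%), against 18.4% outside. The direction of these line differences was the same in the window as outside, and the intervals of both shares among places with all 3 targets in WT held the outside values.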

How the data were processed

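The 15 samples comprise 11 ChIP libraries and 4 inputs of TF-1 cells, which per the labels' protocols were crosslinked with formaldehyde (1%, 10 minutes) before shearing to 200 to 400 bp. Bowtie2, Picard, MACS2 and hg19 are named in the submitters' processing notes, with versions and settings not given in the sources used here. Deposited by the authors were 6 peak lists, named as merges, and each was taken as 1 pooled call. The deposited fold enrichment is a ratio, summit pileup over local background. The p-value and q-value of that summit were deposited as −log10. The deposited score was not used. Each list began at a −log10 q of 2.00 to 2.05. These values are the authors' and describe or rank peaks within a list.

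ChIP reads at each summit and the local background were recovered from fold and p. This assumed that the caller added the same constant to summit pileup and local background before taking their ratio. All lists gave whole reads for 100% of peaks (tolerance 0.002 in −log10 p). With the worth of a read wrong by 3%, at most 1.47% did. On 2 simulated lists, 99.9% and 100% of the summit reads came back exact. Total reads needed further assumptions, an effective genome of 2700000000 bp and a fragment length. The length was taken as the width of the shortest peak of each list. For SMC3 it was 126 bp in WT and 151 bp in Q592*. On that basis recovered depth was 93.4 to 107.5 M ChIP reads (M stands for 1000000). Input depth was 86.7 to 95.3 M reads for the WT lists and 72.6 to 78.0 M for the Q592* lists.

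The window and its members, stretches and tables were chosen with earlier results of these data known. Named peaks are, in each stretch, the 3 with the highest −log10 q of each list, and every place with all 3 targets in a line; other peaks were named after their values were seen. Overlap needed at least 1 bp. Alternatives were a −log10 q of at least 10, lists of equal length, a reciprocal overlap of 50%, summits within 200 bp, other bounds of the stretches, scaling to total reads, and thresholds on coverage. Software was Python 3.11.15, scipy 1.17.1, numpy 2.4.6, matplotlib 3.10.9 and pandas 2.3.3. Sequences are not printed.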

Additional observations from a re-analysis of the deposited data

Results flagged for a closer look

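At this locus the number of peaks differed between the lines in 1 direction for the transcription factors and in the other for SMC3. The log2 ratio of window peaks, Q592* over WT, was 0.46 for GATA2 and 0.14 for RUNX1, and -1.17 for SMC3. Over the whole lists it was 0.60, 0.70 and -0.37, so these directions were not particular to the locus. With lists of equal length the direction was the same for all 3 targets: WT had 90 peaks of GATA2, 30 of RUNX1 and 46 of SMC3, against 70, 15 and 35 for Q592*. Each value rests on 1 pooled list per line, and the difference between the targets was not tested.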

How the results depend on the processing

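Of 134 values recomputed under alternatives, 67 stayed within the limit set for them, 66 moved further and 1 reversed. The limit was an interval for shares, a factor of 1.5 for counts and a fixed difference for median log2 ratios. No paired analysis was possible because every list merges its libraries and names no replicate, and for the same reason no library could be left out. The planned assignment to promoters, exons and introns, and peaks near genes related to MYC, were not run, since the annotation of hg19 was not used here. What depth does to the weak peaks was not tested. The thresholds on coverage and the WT threshold against the full Q592* list were chosen after seeing the data. The cause of each change below was not tested, beyond the shorter lists that a threshold leaves.

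With a −log10 q of at least 10, the window held 46 GATA2, 17 RUNX1 and 34 SMC3 peaks in WT and 70, 18 and 20 in Q592*. Shared, Q592*-only and WT-only regions numbered 42, 28 and 3 (GATA2), 12, 6 and 5 (RUNX1), and 19, 1 and 15 (SMC3). WT SMC3 regions without a Q592* peak were 44.1% in the window and 18.3% outside. GATA2 peaks at SMC3 were 28.3% in WT and 10.0% in Q592*. With coverage of at least 10, peaks numbered 34, 16 and 30 in WT and 65, 20 and 20 in Q592*, and regions 33, 32 and 0 (GATA2), 14, 6 and 2 (RUNX1), and 18, 2 and 12 (SMC3). The share of WT SMC3 without a Q592* peak was 40% in the window and 15.3% outside. With only WT limited to a −log10 q of at least 10, that share was 18.2% and 8.54%.

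With lists of equal length, Q592* had 70 GATA2 and 15 RUNX1 peaks and WT had 46 SMC3 peaks. Q592*-only and WT-only regions were 13 and 31 for GATA2, RUNX1 had 13 shared, 2 Q592*-only and 17 WT-only, and SMC3 had 15 WT-only. WT SMC3 without a Q592* peak was 33.3% in the window and 15.5% outside. Overlap with SMC3 was 22.2% for WT GATA2, 43.3% for WT RUNX1 and 22.9% for Q592* GATA2, so GATA2 no longer had a lower share in Q592*. For Q592* RUNX1 it was 6 of 15 peaks, only slightly below the WT share. With a reciprocal overlap of 50%, GATA2 had 26 WT-only and SMC3 8 Q592*-only regions, and the share of WT SMC3 without a Q592* peak was 34.4% outside; summits within 200 bp gave 30.6%. The same overlap gave 26.7% for WT GATA2 at SMC3, 53.3% for WT RUNX1 at GATA2, 10.5% and 8.87% for Q592* GATA2 at RUNX1 and at SMC3, and 39.4% for Q592* RUNX1 at GATA2.

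A distal stretch of 1.7 to 1.9 Mb held 21 GATA2 and 5 RUNX1 peaks in Q592*. Inner bounds moved by 50 kb gave the MYC stretch 2 GATA2 peaks in WT and 1 RUNX1 peak in each of WT and Q592*. Scaling to the total reads reversed the median SMC3 log2 ratio, to 0.075, under the assumed fragment length of each list.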
